A study of Mus musculus with 5 samples.

Results

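Cadherins are adhesion receptors that bind their like across the gap between cells through calcium-dependent ectodomain repeats. Classical cadherins hold beta-catenin, plakoglobin and p120-catenin on their cytoplasmic tail and so couple to actin, while the non-clustered protocadherins lack this tail and are thought to guide sorting, axon growth and synapse formation more than firm adhesion. In the cerebellum, members of both families are known for patchy expression that marks Purkinje cell stripes, nuclei and granule cells, and for roles in the migration and wiring of these cells.

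The genes described are the 35 protein-coding members of these families among 55421 genes in the raw count table, chosen by name as Cdh or Pcdh followed by a number, which leaves out the clustered protocadherins. They were counted by bulk RNA-seq of whole mouse cerebella at postnatal day 14. The 3 Yy1 cKO libraries came from mice of genotype Pcp2 Cre/+; Yy1 fx/fx and the 2 control libraries from littermates of genotype Pcp2 Cre/+; Yy1 fx/+, so that every animal carried the Pcp2-driven recombinase, which acts in Purkinje cells, and at least 1 floxed allele of the transcription factor gene Yy1. Control animals therefore carried the same recombinase and lacked 1 intact Yy1 copy in the recombined cells. By type the members were 5 classical type I cadherins, 13 classical type II cadherins, 5 other cadherins, 4 delta-1, 5 delta-2 and 3 other non-clustered protocadherins.

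Libraries held 17424860 to 20305705 counts. Levels are given in CPM, counts set on a common library size after TMM scaling, a correction for differences in composition between libraries. For the targeted gene itself, Yy1, levels were 73.4, 81.7 and 75.8 CPM in Yy1 cKO and 74.6 and 73.7 CPM in the controls, a log2 fold change of 0.05 ± 0.065 (SE, adjusted p = 0.61) over the whole tissue and the whole gene, so that the deleted part in Purkinje cells is not checked by it. Yy1 cKO 3 stood apart from all other libraries on the second principal component (18.5% of the variance). Xist, the X-inactivation transcript, was at 34304, 29862 and 6 counts in Yy1 cKO and 12 and 44119 counts in the controls, near absent in Yy1 cKO 3 and control 1. Ddx3y, on chromosome Y, had 0, 0 and 1471 counts in Yy1 cKO and 1175 and 0 counts in the controls. The labels call the sexes mixed and tie no library to an animal or litter, so the p-values stand for the spread among these 5 libraries, which may be partly technical.

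Of the 35 members 32 had enough counts to be tested, and 16 passed an adjusted p of 0.05, 4 of them higher and 12 lower in Yy1 cKO. Of all 20388 genes tested, 23.4% passed (edgeR quasi-likelihood test, Benjamini-Hochberg adjustment over all genes). Members called lower made up 37.5% against 12.6% of all genes, and members called higher 12.5% against 10.7%. The same shares of all genes are the background for the counts by type and by gene list below. The 4 that rose were the classical cadherins Cdh1, Cdh15, Cdh18 and Cdh7. The 12 that fell were Cdh6, Cdh8, Cdh10, Cdh11, Cdh13, Cdh24, Pcdh7, Pcdh8, Pcdh11x, Pcdh12, Pcdh17 and Pcdh18. Of the 12 protocadherins 6 were called lower and 0 higher. With so few genes, 0 is near the 10.7% of all genes called higher. The count of higher calls was 0 also at an unadjusted p under 0.05 in edgeR and by DESeq2 and limma-voom. Pcdh1 was called higher without Yy1 cKO 3. The median log2 fold change was -0.31 over the 32 tested members and -0.00 over all genes tested. Without Yy1 cKO 3 the calls were 6 higher and 13 lower, and the 16 calls above were among them. The higher calls were fewer without control 1 (1 call) and without control 2, Yy1 cKO 1 or Yy1 cKO 2 (2 calls each). In whole tissue, fewer cells of a type and less RNA per cell cannot be told apart.

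**Figure D1:**
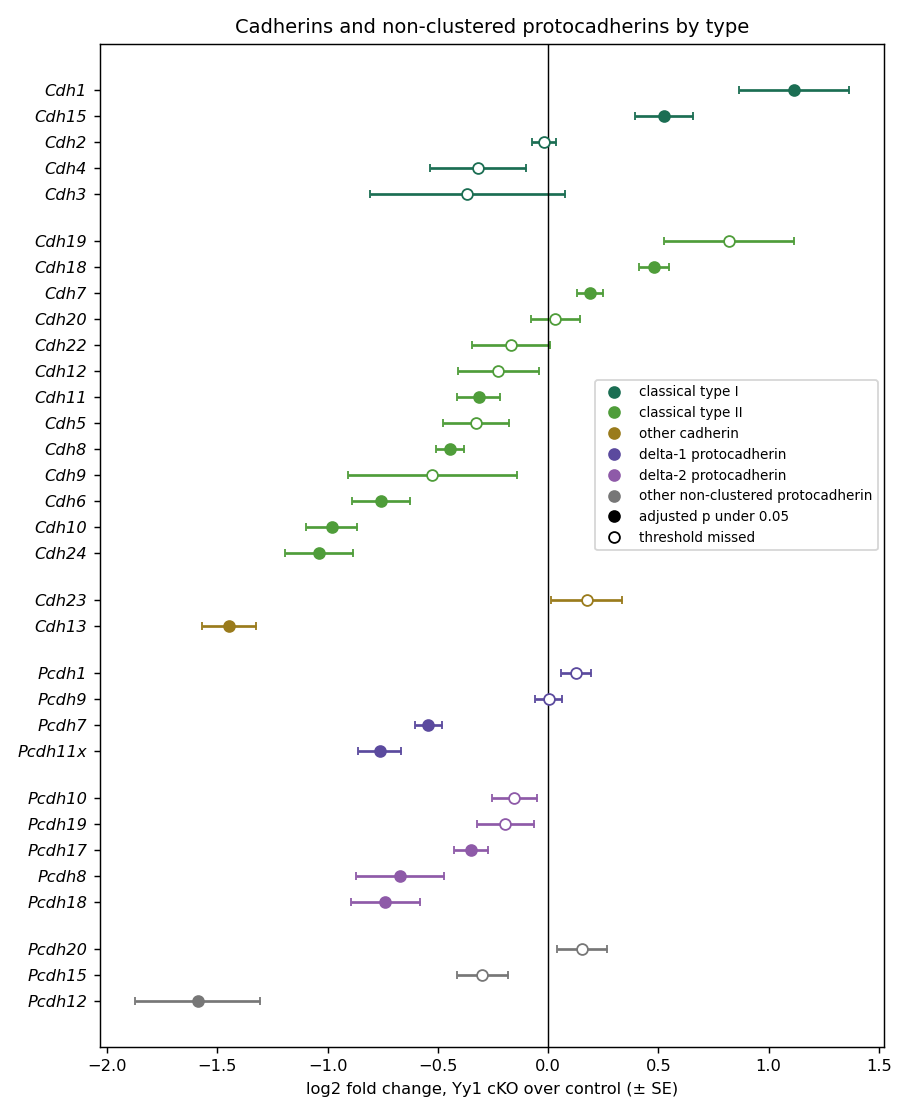
Log2 fold change of Yy1 cKO over control for the 32 tested members, ordered within each type, with the standard error as a bar. Filled points passed an adjusted p of 0.05. No protocadherin has a filled point right of 0, where 10.7% of all genes tested were called higher. The filled points range between -1.59 for Pcdh12 and 1.11 for Cdh1.

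Markers of several cell types moved with the groups, and their part in the results on cadherins was not tested. All 10 markers of dividing cells fell, with summed levels of 7.52 to 9.46 CPM in Yy1 cKO and 97.4 to 122 CPM in the controls, as did 6 of 8 markers of granule cell precursors (75.2 to 81.5 CPM in Yy1 cKO and 198 to 220.2 CPM in the controls) and 9 of 10 of young migrating neurons (1109.7 to 1202 CPM in Yy1 cKO and 1921 to 1974 CPM in the controls). In the second postnatal week granule cell precursors normally still divide at the surface of the cerebellum. Atoh1, which defines these precursors, had 0, 1 and 0 counts in Yy1 cKO and 16 and 19 in the controls. Of 10 markers of mature granule neurons 9 rose (6498 to 7319 CPM in Yy1 cKO and 4979 to 5014 CPM in the controls), as did 6 of 10 of inhibitory interneurons (1434 to 1582 CPM in Yy1 cKO and 995 to 1011 CPM in the controls) and 2 of 10 of Purkinje cells (5386 to 6227 CPM in Yy1 cKO and 4650.1 to 4785 CPM in the controls). Of 9 markers of oligodendrocyte precursors 7 fell and 1 rose (598 to 669 CPM in Yy1 cKO and 637 to 655 CPM in the controls). These sums are led by Ptprz1, the marker that rose (407, 380 and 429 CPM in Yy1 cKO and 323 and 321 CPM in the controls). They therefore hide the fall of the others. Of 10 oligodendrocyte markers 3 rose and 1 fell (6681 to 7413 CPM in Yy1 cKO and 6923 to 6982 CPM in the controls). Among 10 markers of astrocytes and Bergmann glia 4 rose and 1 fell (4704 to 5126 CPM in Yy1 cKO and 3921 to 3950.5 CPM in the controls). In the vessels and coverings 5 of 10 endothelial markers fell and 2 rose (176 to 184 CPM in Yy1 cKO and 191 to 202 CPM in the controls), 3 of 8 mural cell markers fell (180.0 to 219.8 CPM in Yy1 cKO and 259.8 to 296 CPM in the controls) and 3 of 10 meningeal fibroblast markers fell (135 to 185 CPM in Yy1 cKO and 212 to 279 CPM in the controls). Erythroid genes rose in 4 of 6 cases (596 to 962 CPM in Yy1 cKO and 263 to 304 CPM in the controls), 0 of 5 tested microglial markers passed, at an unadjusted p of 0.05 and by DESeq2 and limma-voom too (65.8 to 87.1 CPM in Yy1 cKO and 73.6 to 77.1 CPM in the controls), and choroid plexus markers were low, with 1 higher and 1 lower of 5 tested (12.8 to 20.5 CPM in Yy1 cKO and 21.2 to 21.6 CPM in the controls).

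Type I cadherins, the classical form that builds adherens junctions, included 2 of the 4 members that rose. Cdh1, E-cadherin of epithelia, had 9.51, 12.4 and 12.4 CPM in the Yy1 cKO libraries, against 3.76 and 6.80 CPM in the controls. All Yy1 cKO libraries were above both controls, which differed from each other. The mean was 11.4 ± 1.7 CPM in Yy1 cKO (SD, n = 3) and 5.28 ± 2.2 CPM in the controls (SD, n = 2), with a log2 fold change of 1.11 ± 0.25 (SE, adjusted p = 0.016). Cdh1 no longer passed when control 1, the lower of the controls, was left out (0.75, adjusted p = 0.065), nor without Yy1 cKO 2 (adjusted p = 0.054).

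Cdh15, M-cadherin, first known from muscle and also found on cerebellar granule neurons, had 49.8, 51.4 and 37.7 CPM in Yy1 cKO and 32.2 and 32.1 CPM in the controls. Yy1 cKO 3 was the lowest of its group and the groups did not overlap. The log2 fold change was 0.53 ± 0.13 (SE, adjusted p = 0.023). Leaving out control 1, control 2, Yy1 cKO 1 or Yy1 cKO 2 ended the call of Cdh15, at adjusted p of 0.14, 0.14, 0.067 and 0.059, while without Yy1 cKO 3 it was 0.65 (adjusted p = 2.0e-06). Mature granule neuron markers, above, moved in the same direction, as did most called markers of inhibitory interneurons and of astrocytes and Bergmann glia. The part of any cell type in the rise of Cdh15 was not tested.

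Cdh2, N-cadherin, the main classical cadherin of neural tissue, stood at 113, 109 and 115 CPM in Yy1 cKO and 115 and 113 CPM in the controls. The groups overlapped and the log2 fold change was -0.02 ± 0.055 (SE, adjusted p = 0.86). Cdh4, R-cadherin, had 32.7, 32.1 and 20.03 CPM in Yy1 cKO, with Yy1 cKO 3 far below the other libraries, and 34.9 and 35.7 CPM in the controls. Its log2 fold change of -0.32 ± 0.22 (SE) did not pass (adjusted p = 0.37), nor did the -0.12 found without Yy1 cKO 3 (adjusted p = 0.23). With all genes of at least 1 count in the edgeR fit Cdh4 was called lower (-0.31, adjusted p = 0.033). The fold change hardly moved there, while its SE was 0.11 in place of 0.22. That call therefore comes from a smaller estimated spread, although the Yy1 cKO libraries differ. Cdh3, P-cadherin, was near the limit of detection with 8, 8 and 14 counts in Yy1 cKO and 13 and 12 in the controls. Per kilobase of exon the type I sum was 34.7 ± 2.8 in Yy1 cKO (SD, n = 3) and 30.2 ± 0.32 in the controls (SD, n = 2). Cdh15 made up 40.9% ± 3.4 of it in Yy1 cKO and 32.8% ± 0.47 in the controls, and Cdh2 made up 40.4% ± 4.2 in Yy1 cKO and 46.8% ± 1.1 in the controls.

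Type II cadherins, the larger classical subfamily, moved in both directions: of 13 members 5 fell, 2 rose and 6 did not pass. Their ectodomains are known to sort into groups that bind within the group, and the members are given here in that order, a choice made after the values were seen. Cdh8, Cdh11 and Cdh24 form such a group, and all 3 fell. Cdh8, which marks subsets of neurons, had 80.0, 81.6 and 73.5 CPM in Yy1 cKO and 106 and 107 CPM in the controls (log2 fold change -0.44 ± 0.063, SE, adjusted p = 9.2e-04). The controls were nearly equal and stood above all Yy1 cKO libraries. Cdh24 was less abundant, with 4.58, 6.13 and 4.83 CPM in Yy1 cKO and 10.7 and 10.5 CPM in the controls, and its relative fall was larger (-1.04 ± 0.15, SE, adjusted p = 0.0012). Cdh11, the osteoblast cadherin, also found in mesenchyme and meninges, had 25.0, 26.7 and 23.1 CPM in Yy1 cKO and 29.1 and 32.9 CPM in the controls. It lay close to the threshold (-0.31 ± 0.098, SE, adjusted p = 0.045), and 7 of the 15 alternatives did not call it.

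Cdh6, Cdh9 and Cdh10 form the next binding group, of which 2 fell and Cdh9 was barely detected. Cdh10 had 19.7, 21.7 and 25.6 CPM in Yy1 cKO and 46.9 and 41.4 CPM in the controls, so that every Yy1 cKO library was well below both controls. Cdh10 differed by -0.98 ± 0.11 on the log2 scale (SE, adjusted p = 3.2e-04). Cdh6, K-cadherin, had 10.97, 10.1 and 13.6 CPM in Yy1 cKO, against 19.5 and 19.6 CPM in the controls, with a log2 fold change of -0.76 ± 0.13 (SE, adjusted p = 0.0028). The controls were nearly equal, and Yy1 cKO 3 was the highest of its group for both Cdh6 and Cdh10. Cdh9 had 18, 14 and 10 counts in Yy1 cKO and 24 and 15 in the controls and did not pass (adjusted p = 0.37).

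The group of Cdh7, Cdh12, Cdh18, Cdh20 and Cdh22 held both type II members that rose, while its other 3 members did not pass. Cdh18, a cadherin of the central nervous system, had 91.3, 91.0 and 82.0 CPM in Yy1 cKO and 64.2 and 62.1 CPM in the controls. All Yy1 cKO libraries lay above both controls, with a log2 fold change of 0.48 ± 0.068 (SE, adjusted p = 9.1e-04). Cdh7 had 117, 115 and 125 CPM in Yy1 cKO and 103 and 107 CPM in the controls, a small difference at the edge of the threshold (0.19 ± 0.060, SE, adjusted p = 0.047) that 9 of 15 alternatives did not call. With scaling by library size alone the value for Cdh7 was 0.11 (adjusted p = 0.23).

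Of these 3, Cdh22, the pituitary and brain cadherin, had 108, 118 and 81.5 CPM in Yy1 cKO and 125 and 106 CPM in the controls (-0.17 ± 0.18, SE, adjusted p = 0.57), with Yy1 cKO 3 the lowest library. Cdh20 had 26.0, 22.1 and 26.4 CPM in Yy1 cKO and 22.5 and 26.0 CPM in the controls (0.03 ± 0.11, SE, adjusted p = 0.87). Cdh12, brain cadherin, had 14.2, 15.2 and 10.4 CPM in Yy1 cKO and 17.7 and 13.3 CPM in the controls (-0.23 ± 0.18, SE, adjusted p = 0.43). The groups overlapped for all 3 genes.

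The remaining type II members are known from vessels and glia. Cdh5, VE-cadherin of the junctions between endothelial cells, had 11.98, 13.4 and 10.9 CPM in Yy1 cKO and 12.9 and 17.5 CPM in the controls (-0.33 ± 0.15, SE, adjusted p = 0.15), with overlapping groups. Cdh19, known from Schwann cell precursors and other glia, had 9.46, 7.28 and 14.0 CPM in Yy1 cKO and 5.05 and 6.58 CPM in the controls. The groups did not overlap, Yy1 cKO 3 was well above the others of its group, and the log2 fold change of 0.82 ± 0.29 (SE) missed the threshold (adjusted p = 0.097). Cdh19 passed without Yy1 cKO 3 (0.53, adjusted p = 0.037) and without Yy1 cKO 2 (1.01, adjusted p = 0.025). It also passed by DESeq2 (0.82, adjusted p = 0.029) and with all genes of at least 1 count in the edgeR fit (0.82, adjusted p = 6.3e-06). The latter fit gave smaller standard errors to members such as Cdh4, above, and Cdh1 (0.16 in place of 0.25). Its small p for Cdh19 is therefore no separate support. Of 7 Schwann cell markers 3 were tested, 1 higher and 1 lower (20.9 to 23.7 CPM in Yy1 cKO and 14.6 to 17.2 CPM in the controls), and Pmp2 had no count in any library.

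**Figure D2:**
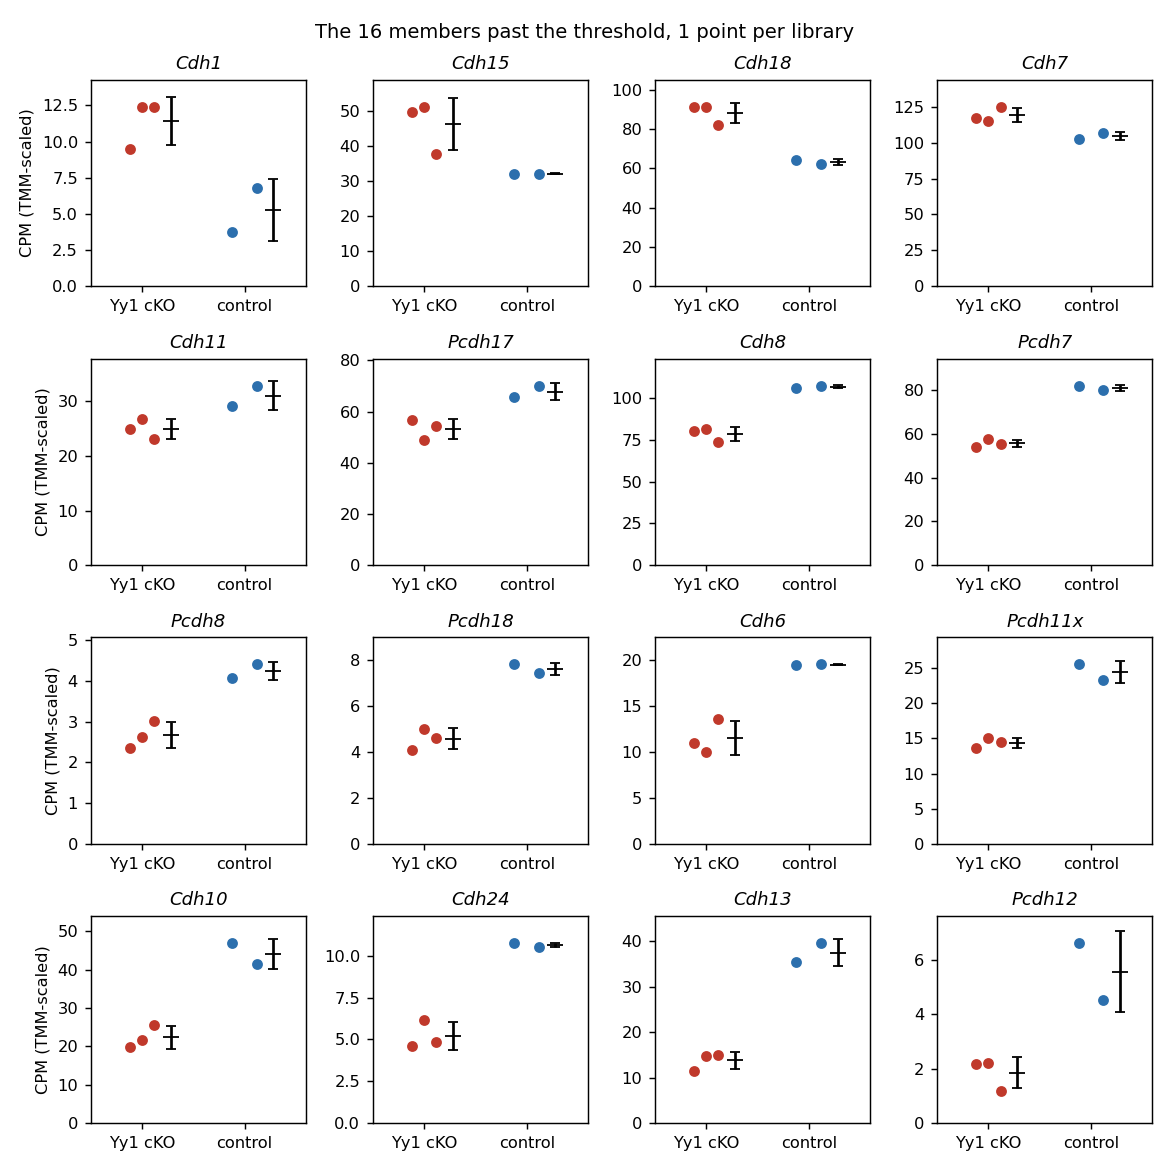
TMM-scaled CPM of the 16 members that passed an adjusted p of 0.05, with 1 point per library, Yy1 cKO left (n = 3) and control right (n = 2), and the mean ± SD beside the points. In each panel the groups do not overlap, which is no separate support, since the members were chosen by p on these same libraries. Groups also did not overlap for Cdh4, Cdh19, Pcdh15 and Pcdh20, which did not pass. With so few libraries groups can readily part without a difference, and the share of all genes that do so was not counted. Every axis starts at 0.

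Among cadherins outside the classical types, Cdh13 had the smallest p of all members. Cdh13, T-cadherin, is held in the membrane by a lipid anchor, lacks a cytoplasmic tail and binds adiponectin. It had 11.5, 14.8 and 14.9 CPM in the Yy1 cKO libraries and 35.4 and 39.6 CPM in the controls. Every Yy1 cKO library was below 15 CPM and both controls above 35 CPM. The mean was 13.8 ± 1.9 CPM in Yy1 cKO (SD, n = 3) and 37.5 ± 3.0 CPM in the controls (SD, n = 2), a log2 fold change of -1.45 ± 0.12 (SE, adjusted p = 4.7e-05). Cdh23, which forms the tip link of inner ear hair cells together with Pcdh15, had 6.19, 8.05 and 7.73 CPM in Yy1 cKO and 6.88 and 6.08 CPM in the controls and did not pass (0.17 ± 0.16, SE, adjusted p = 0.49). A further 3 genes missed the filter on low counts. Cdh16, the kidney cadherin, had 1 count over the 5 libraries, in control 2, and Cdh17, of liver and intestine, had 1, in Yy1 cKO 2. Cdh26 had 1, 7 and 3 counts in Yy1 cKO and 1 and 2 in the controls. A count of 0 in a library allows up to 3 counts, which is 0.151 to 0.167 CPM here and covers counting error only.

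Delta-1 protocadherins, which have a longer ectodomain than delta-2 ones, held the most abundant member per length. Pcdh9 had 350.1, 352 and 337 CPM in Yy1 cKO and 334 and 358 CPM in the controls, with a log2 fold change of 0.00 ± 0.060 (SE, adjusted p = 0.98) and overlapping groups. Pcdh7 had 53.9, 57.4 and 55.5 CPM in Yy1 cKO and 82.0 and 79.9 CPM in the controls. The libraries of each group lay close together and far from the other group, and the log2 fold change was -0.54 ± 0.060 (SE, adjusted p = 2.0e-04). The X-linked Pcdh11x had 13.7, 15.1 and 14.4 CPM in Yy1 cKO and 25.5 and 23.4 CPM in the controls (-0.76 ± 0.099, SE, adjusted p = 5.3e-04). All Yy1 cKO libraries were below both controls, and the edgeR value with log2 CPM of Xist as a covariate was -0.76 (adjusted p = 9.3e-04). Since Xist was low only in Yy1 cKO 3 and control 1, that fit can tell little about sex, whose part was not tested. Pcdh1 had 117, 119 and 109 CPM in Yy1 cKO and 110.4 and 101 CPM in the controls (0.13 ± 0.067, SE, adjusted p = 0.21). It passed once Yy1 cKO 3 was left out (0.17, adjusted p = 0.035).

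Delta-2 protocadherins, several of which recruit the actin-regulating WAVE complex, fell in 3 of 5 cases, and the other two did not pass. Pcdh17 had 56.5, 48.8 and 54.3 CPM in Yy1 cKO and 65.5 and 70.2 CPM in the controls (-0.35 ± 0.076, SE, adjusted p = 0.0091). Pcdh18 had 4.08, 4.98 and 4.62 CPM in Yy1 cKO and 7.79 and 7.42 CPM in the controls (-0.74 ± 0.16, SE, adjusted p = 0.0079). Pcdh8, arcadlin, induced by activity at synapses, had 2.37, 2.63 and 3.01 CPM in Yy1 cKO and 4.08 and 4.41 CPM in the controls (-0.67 ± 0.20, SE, adjusted p = 0.037). In each of the 3 all Yy1 cKO libraries lay below both controls. Calls were lost for Pcdh17 without control 2 (adjusted p = 0.12), for Pcdh18 without control 1 or 2 (adjusted p = 0.072 and 0.053) and for Pcdh8 in 6 of 15 alternatives.

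The other delta-2 members did not pass. Pcdh10 had 52.5, 49.9 and 64.0 CPM in Yy1 cKO and 62.3 and 61.0 CPM in the controls (-0.15 ± 0.10, SE, adjusted p = 0.33), and without Yy1 cKO 3, its highest library, it was called lower (-0.27, adjusted p = 0.0041). The X-linked Pcdh19, which is mutated in a human epilepsy that affects mainly girls, had 13.0, 11.4 and 14.9 CPM in Yy1 cKO and 14.6 and 15.4 CPM in the controls (-0.19 ± 0.13, SE, adjusted p = 0.32). Summed per kilobase of exon, the 5 delta-2 genes reached 10.3 ± 0.83 in Yy1 cKO (SD, n = 3) and 12.9 ± 0.26 in the controls (SD, n = 2), while the 4 delta-1 genes, led by Pcdh9, reached 70.4 ± 1.9 in Yy1 cKO and 72.4 ± 1.5 in the controls.

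Pcdh12, an endothelial protocadherin, had the most negative log2 fold change of all members with all 5 libraries in the fit. It stood at 2.16, 2.19 and 1.18 CPM in Yy1 cKO and 6.61 and 4.52 CPM in the controls, that is 43, 40 and 22 counts in Yy1 cKO and 123 and 81 in the controls. The groups did not overlap, with Yy1 cKO 3 the lowest library and control 1 the highest. Its log2 fold change came to -1.59 ± 0.28 (SE, adjusted p = 0.0034), and Pcdh12 just missed the threshold when control 1 was left out (-1.29, adjusted p = 0.054). In that fit Cdh13 had the lower value, -1.53, as it had without Yy1 cKO 3 (-1.51, against -1.35 for Pcdh12). Of the 10 endothelial markers above 5 fell and 2 rose, and Cdh5 of the same cells did not pass. The part of endothelial cells in the fall of Pcdh12 was not tested. Pcdh15, known from hair cells and from oligodendrocyte precursors, had 10.02, 9.53 and 10.8 CPM in Yy1 cKO and 13.0 and 11.9 CPM in the controls, and Pcdh20, a little-studied brain protocadherin, had 13.7, 13.0 and 15.3 CPM in Yy1 cKO and 12.2 and 13.0 CPM in the controls. Their log2 fold changes of -0.30 ± 0.12 and 0.15 ± 0.11 (SE) did not pass (adjusted p = 0.093 and 0.38). The groups did not overlap for either, by a narrow margin for Pcdh20. With so few libraries that can readily occur without a difference.

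**Figure D3:**
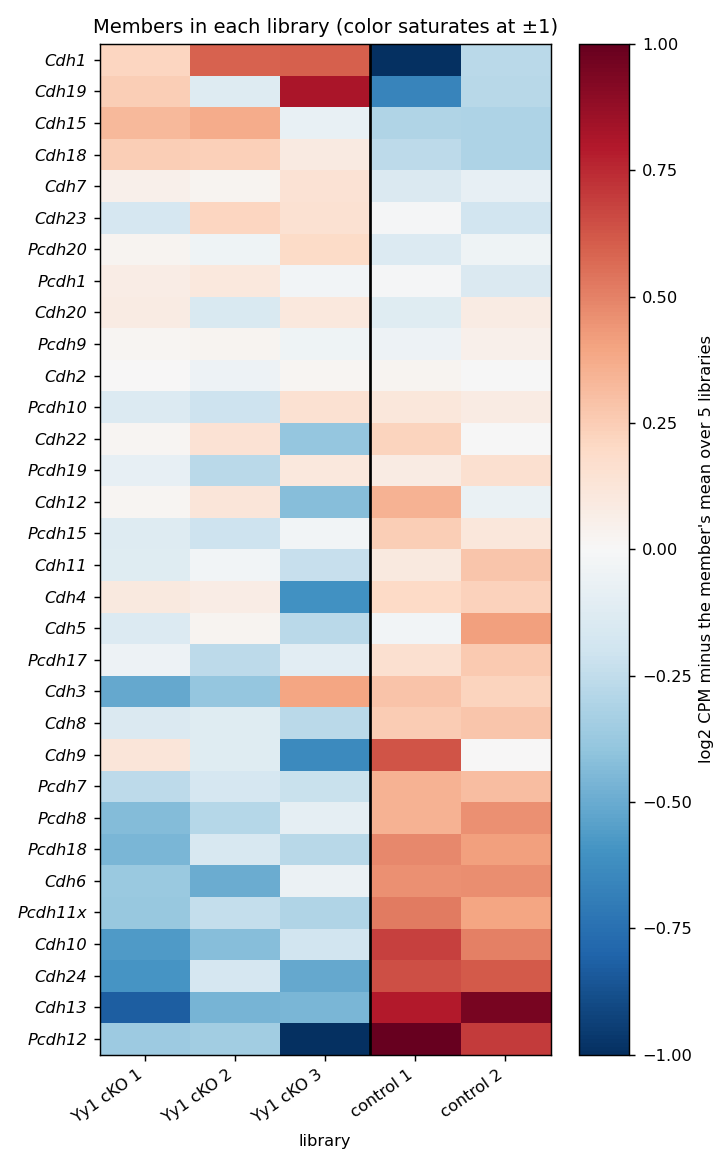
Each row is 1 of the 32 tested members, ordered by fold change, and each column 1 library, Yy1 cKO left and control right of the line. Color gives log2 CPM minus the member's mean over the 5 libraries, and saturates at 1 either way. Yy1 cKO 3 departs from Yy1 cKO 1 and 2 in both directions. Examples are Cdh3 and Cdh19, which are higher there, and Cdh4, Cdh9, Cdh12, Cdh22 and Pcdh12, which are lower. Cdh3 and Cdh9 rest on few counts.

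Levels can be set side by side between genes only per length, here as CPM per kilobase of the union of annotated exons, which understates genes whose long exons are not used in this tissue. On this scale the order was led by Pcdh9 (51.1 ± 1.2 in Yy1 cKO and 51.0 ± 2.6 in the controls, SD, n = 3 and 2) and Cdh22 (27.7 ± 5.1 in Yy1 cKO and 31.2 ± 3.6 in the controls). Cdh18 reached 19.3 ± 1.2 in Yy1 cKO and 13.9 ± 0.32 in the controls. Among the control means Cdh2 (14.1 ± 0.18), Cdh18 and Cdh8 (13.8 ± 0.13) held ranks 3 to 5 at nearly equal levels. In Yy1 cKO Cdh18 stood at rank 3, Cdh15 (14.2 ± 2.3) at rank 4, against 8 in the controls, and Cdh8 (10.1 ± 0.56) at rank 8, against 5. Cdh1 stood at rank 17 in Yy1 cKO and 26 in the controls, while Cdh13 stood at rank 24 in Yy1 cKO and 17 in the controls. These ranks are a description and were not tested.

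**Figure D4:**
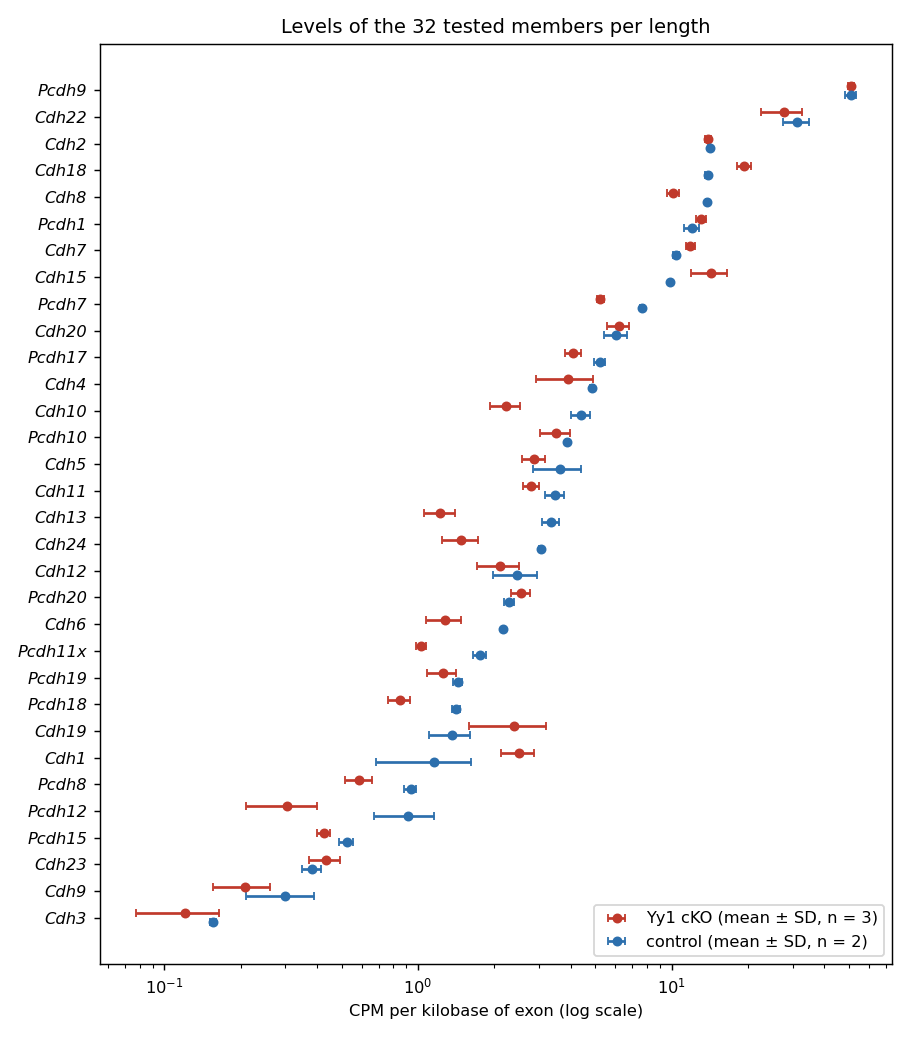
Mean level ± SD of the 32 tested members in CPM per kilobase of exon on a log scale, for Yy1 cKO (upper point of each pair, n = 3) and control (lower point, n = 2), ordered by the control mean. Pcdh9 leads in both groups, and Cdh13, Cdh10, Cdh24 and Pcdh12 show the widest gaps to the left.

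Many members share a chromosome, and calls in both directions occurred on chromosomes 8 and 15 (all positions GRCm38, GENCODE M21). On chromosome 8, which holds 8 members, Cdh8 (99024471 to 99416471) and Cdh11 (102632095 to 102785642) fell, Cdh1 (106603351 to 106670246) rose, Cdh13 (118283733 to 119324921) fell and Cdh15 (122847966 to 122867397) rose. Cdh3 ends 46.1 kb before Cdh1 and did not pass. On chromosome 15 Cdh6 (13028701 to 13173675) and Cdh10 (18818947 to 19014236) fell and Cdh18 (22549022 to 23474418), the last of the row, rose, with Cdh9 and Cdh12 in between. On chromosome 14 Cdh24 (54631231 to 54641364), Pcdh8 (79766775 to 79771312) and Pcdh17 (84443563 to 84539002) fell, and the next members, Pcdh20 and Pcdh9, did not pass. Pcdh12 (38267089 to 38284402, chromosome 18) lies 55.0 kb from Pcdh1, which did not pass. The other called members were Cdh7 on chromosome 1 (109982431 to 110140157), Pcdh18 on chromosome 3 (49743296 to 49757325), Pcdh7 on chromosome 5 (57717967 to 58133230) and Pcdh11x on chromosome X (120290259 to 120910619). Differences between neighbours were not tested.

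**Figure D5:**
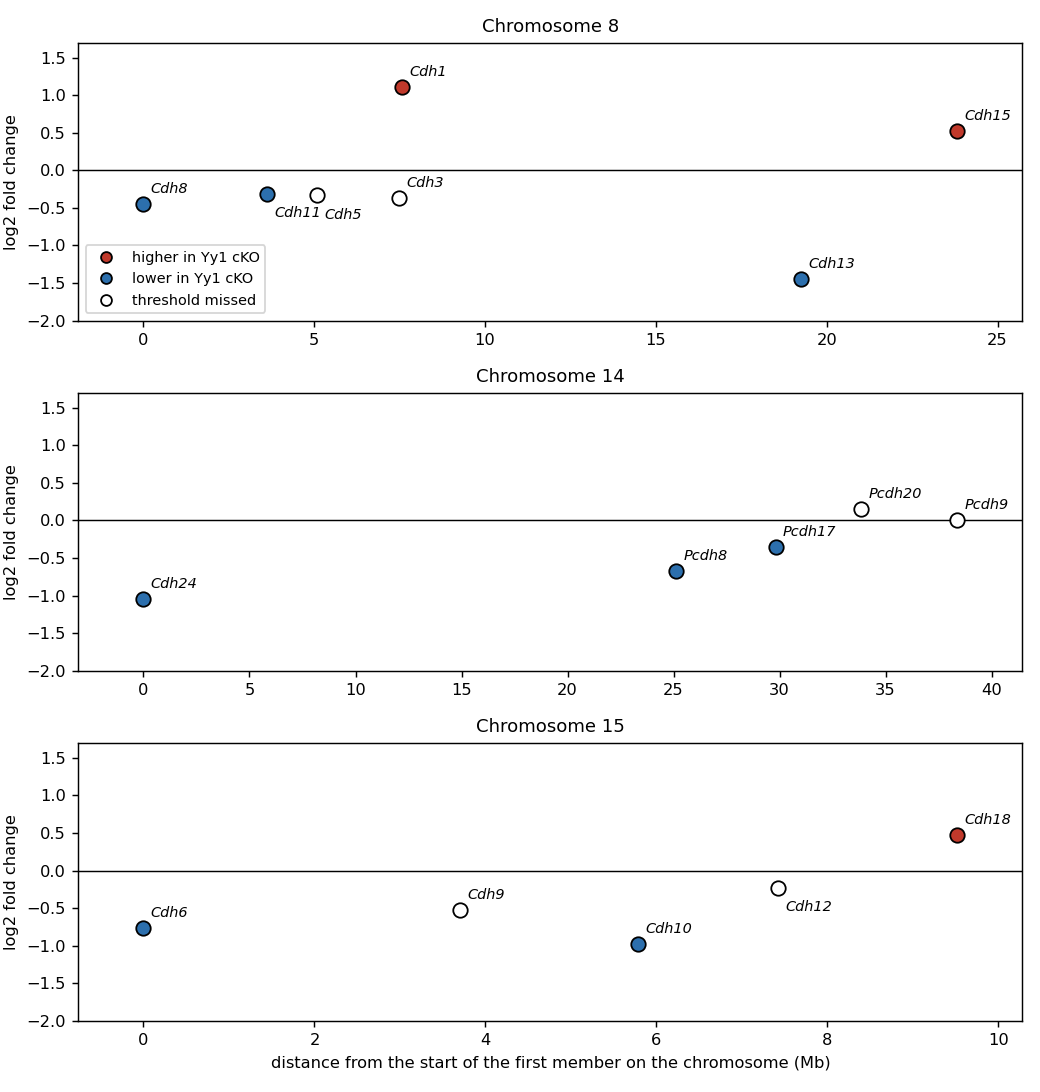
Log2 fold change of the tested members on chromosomes 8, 14 and 15 against their distance from the first member there, in Mb. Red points were called higher, blue points lower, and white points missed the threshold. Cdh1 at 1.11 stands right beside Cdh3, and Cdh18 at 0.48 ends a row of 4 genes with negative values.

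Exons of 7 members overlap another annotated gene. The libraries were strand-specific, per the labels, but the strand setting of the counting is unknown here, so reads of such pairs may not be told apart. Among called members the antisense partner of Pcdh7 (4932441J04Rik) had 21 to 35 counts in Yy1 cKO and 35 to 52 in the controls, and those of Cdh8 (Gm15679) and Pcdh8 (Gm9748) had at most 2 counts in any library.

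Promoter windows of 300 bases (250 before to 50 after a RefSeq start, GRCm38.p6) were at hand for 22 members. Among called members Cdh1, Cdh11, Cdh13, Pcdh11x and Pcdh12 had none, so their promoters were not searched. The core of the YY1 motif, ATGGC on either strand, was in 4 of the members' 25 windows and in 40.5% of 32851 windows of all genes. The 4 belong to Cdh7, Cdh9, Cdh23 and Pcdh20. The longer form AANATGGC, which contains the core, was in none of the members' windows and in 6.05% of all windows. The sequence CACCTG on either strand, bound by the repressors Snail and Zeb, was in 5 of the members' 25 windows and in 20.2% of all windows. The 5 are all 3 windows of Cdh7 and those of Pcdh7 and Pcdh15. A match describes letters and not binding, and the absence of one says only that these letters are not in the window. The 4 windows below belong to a member that rose with both short motifs, a member that fell with the second, and 2 members of 1 binding group that fell with neither. They are written 5′ to 3′ on the strand of the gene, with ATGGC or CACCTG, or their reverse complements, in capitals. The windows lie at chr1:109982650-109982949, plus strand (Cdh7, the first of its 3 windows), chr5:57717831-57718130, plus strand (Pcdh7), chr8:99416422-99416721, minus strand (Cdh8) and chr14:54641315-54641614, minus strand (Cdh24).
Cdh7: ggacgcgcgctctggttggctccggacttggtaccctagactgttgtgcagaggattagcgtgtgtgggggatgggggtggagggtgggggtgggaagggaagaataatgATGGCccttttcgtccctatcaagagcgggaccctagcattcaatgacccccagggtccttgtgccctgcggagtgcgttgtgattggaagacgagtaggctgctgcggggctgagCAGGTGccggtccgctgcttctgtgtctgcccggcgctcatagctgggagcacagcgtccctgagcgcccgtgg
Pcdh7: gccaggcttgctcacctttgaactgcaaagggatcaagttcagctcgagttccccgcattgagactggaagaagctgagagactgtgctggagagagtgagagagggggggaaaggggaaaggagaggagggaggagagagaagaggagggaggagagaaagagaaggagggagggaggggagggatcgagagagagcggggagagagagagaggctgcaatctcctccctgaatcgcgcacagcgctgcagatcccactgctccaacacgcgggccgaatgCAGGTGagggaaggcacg
Cdh8: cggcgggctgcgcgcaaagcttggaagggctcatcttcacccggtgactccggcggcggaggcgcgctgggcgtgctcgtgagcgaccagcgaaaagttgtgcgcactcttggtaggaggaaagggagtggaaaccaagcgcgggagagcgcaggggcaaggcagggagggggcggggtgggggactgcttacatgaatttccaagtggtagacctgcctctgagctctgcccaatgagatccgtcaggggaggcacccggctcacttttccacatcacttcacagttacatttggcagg
Cdh24: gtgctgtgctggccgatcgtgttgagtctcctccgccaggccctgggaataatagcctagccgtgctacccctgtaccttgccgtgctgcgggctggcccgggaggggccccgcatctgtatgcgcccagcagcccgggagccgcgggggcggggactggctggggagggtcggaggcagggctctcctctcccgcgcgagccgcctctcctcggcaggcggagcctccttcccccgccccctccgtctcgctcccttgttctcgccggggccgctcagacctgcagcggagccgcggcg

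The windows of Cdh8 and Cdh24 start from the 5′ end of the gene in GENCODE, and those of Cdh7 and Pcdh7 from a site inside it. In composition, CG dinucleotides and the share of G and C differed. The window of Cdh24 holds 30 CG dinucleotides and 73.3% G and C, that of Cdh8 21 and 62.3%, that of Cdh7 18 and 62.7% and that of Pcdh7 11 and 59.3%. The median over the 25 windows of members was 14 CG dinucleotides and 60.3%, and over all windows 7 and 52.7%.

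Of the proteins that work with cadherins, the catenins and linkers to actin mostly did not pass: 2 of 14 rose and the other 12 did not pass. The called share was 14.3%, against 23.4% of all genes tested. Jup, plakoglobin, which can replace beta-catenin on the cadherin tail, had 166, 173 and 177 CPM in Yy1 cKO and 97.2 and 100.2 CPM in the controls (0.80 ± 0.057, SE, adjusted p = 1.8e-05). Ctnna3, alpha-T-catenin, had 14.0, 14.3 and 14.7 CPM in Yy1 cKO and 7.20 and 6.92 CPM in the controls (1.02 ± 0.11, SE, adjusted p = 2.0e-04). In both genes all Yy1 cKO libraries lay far above both controls. Ctnnb1, beta-catenin itself, stood at 329, 344 and 326 CPM in Yy1 cKO and 323 and 318 CPM in the controls (0.06 ± 0.057, SE, adjusted p = 0.54). Of the 9 WAVE complex genes 2 rose (22.2%, near the 23.4% of all genes called in either direction) and 7 did not pass. Those that rose encode alternative subunits that bind Rac, Cyfip2 (0.47 ± 0.062, SE, adjusted p = 6.3e-04) and Cyfip1 (0.26 ± 0.068, SE, adjusted p = 0.023).

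Other branches of the cadherin superfamily moved in both directions, with 5 higher and 5 lower of 17 tested (58.8% called, against 23.4% of all genes). The planar polarity partners Fat4 and Dchs1, a receptor and its ligand, both fell. Fat4 had 24.9, 26.6 and 31.5 CPM in Yy1 cKO and 45.3 and 43.0 CPM in the controls (-0.68 ± 0.10, SE, adjusted p = 0.0013), and Dchs1 had 34.1, 33.8 and 45.5 CPM in Yy1 cKO and 75.9 and 71.8 CPM in the controls (-0.97 ± 0.13, SE, adjusted p = 0.0021). Fat2, found mainly in granule cells and also counted among their markers above, had 2052, 2000.3 and 1921 CPM in Yy1 cKO and 1556 and 1458 CPM in the controls (0.40 ± 0.070, SE, adjusted p = 0.0029). Clstn1, a calsyntenin of synaptic membranes, rose by 0.36 ± 0.064 on the log2 scale (SE, adjusted p = 0.0034). The others called were Clstn3, Fat1 and Ret, which rose, and Dchs2, Celsr1 and Celsr2, which fell.

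Of 7 genes of proteases that cut cadherins, Adam10, the main sheddase of N-cadherin, fell and Psen2, a catalytic subunit of gamma-secretase, rose. The called share of 28.6% is near the 23.4% of all genes tested. Adam10 had 137, 145 and 135 CPM in Yy1 cKO and 194 and 201 CPM in the controls (-0.50 ± 0.056, SE, adjusted p = 2.1e-04), and Psen2 had 17.4, 17.6 and 16.5 CPM in Yy1 cKO and 13.1 and 12.5 CPM in the controls (0.42 ± 0.10, SE, adjusted p = 0.014). The groups did not overlap in either gene. Of the factors known to repress Cdh1 in epithelia, 4 of 7 were tested and 0 passed in edgeR, against 23.4% of all genes tested. The count was 0 also at an unadjusted p under 0.05 and by DESeq2 and limma-voom. With 4 genes, of which Snai1 and Twist1 had few counts, 0 calls do not show that these factors were unchanged. Their part in the rise of Cdh1 was not tested. Zeb1 stood at 101, 95.9 and 106 CPM in Yy1 cKO and 107 and 103 CPM in the controls, and Zeb2 at 190.5, 166 and 168 CPM in Yy1 cKO and 173 and 170.3 CPM in the controls, while Snai1 had 13, 14 and 7 counts in Yy1 cKO and 10 and 9 in the controls and Twist1 16, 11 and 9 counts in Yy1 cKO and 4 and 8 in the controls.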

How the data were processed

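Per the labels, total RNA was taken from cerebella with TRIzol, ribosomal RNA was removed, and strand-specific libraries were read as pairs of 150 bp. STAR 2.7.1a, featureCounts, Trimmomatic 0.39, DESeq2 1.26.0 and FastQC 0.11.8 are named, with build GRCm38, in the submitters' processing notes; how strand and multiply mapped reads were counted is not given in the sources used here. The deposited raw table holds read counts of 55421 genes as whole numbers. The authors' second table, of normalized values, was not used here.

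Symbols, biotypes and exon lengths came from GENCODE M21 (54673 identifiers matched with version, 567 without, 181 unmatched). Groups were taken from the sample titles. Groups were compared by edgeR's quasi-likelihood test (edgeR 4.0.16, R 4.3.3) with TMM scaling, filterByExpr, robust dispersion and no covariate, fitted on 20388 genes with Benjamini-Hochberg adjustment over all of them, and the biological coefficient of variation common to all genes came to 10.5%. Standard errors came from the F statistic. Members, lists, tests and alternatives were chosen with earlier results of these data known. Every member is named, with values per library for called members and for those with a mean of at least 5 CPM, then up to 4 genes of each other list by p; genes of those lists that did not pass are familiar members chosen after their values were seen. Chi-square per gene, over genes with at least 50 counts in a pair, was 3.51 to 16.7 within groups and 34.1 to 41.5 between them, which shows no duplicated library. Alternatives were other scalings, filters and thresholds, DESeq2 1.42.0, limma-voom (limma 3.58.1), non-robust dispersion, Xist as a covariate, the replicate number as a block and leaving out each library. A lone remaining control was taken to vary like the Yy1 cKO libraries.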

Additional observations from a re-analysis of the deposited data

How the results depend on the processing

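Of the 16 called members 8 were called in all 15 alternative fits, namely Cdh6, Cdh8, Cdh10, Cdh13, Cdh18, Cdh24, Pcdh7 and Pcdh11x, and no called member changed its direction in any of them. The 12 lower members became 8 to 13 and the 4 higher members 1 to 6 when each library was left out in turn. An adjusted p of 0.01 left 1 higher member (Cdh18) and 10 lower members, and of 0.10 gave 5 and 13. DESeq2 called 4 higher and 10 lower, limma-voom 3 and 12, and scaling by library size alone, which moved the median of all genes to -0.08, 3 and 13. Fitting all genes with at least 1 count gave 5 and 13, with Cdh19 and Cdh4 added. That fit gave smaller standard errors to some members, as described for Cdh4 and Cdh1. The replicate number as a block gave 6 higher and 14 lower members, with Cdh19 and Pcdh1 added above and Pcdh10 and Pcdh15 below; since Yy1 cKO 3 alone has its number, this fit takes its group difference from the other 4 libraries and is no separate check from leaving Yy1 cKO 3 out. Deviations of libraries of the same number correlated over genes at r = 0.037 and 0.013, which does not show pairing; with 2 controls, whose deviations mirror each other, this check is weak, and the labels tie no number to a litter. Low counts and only 2 controls limit what could be detected in genes such as Cdh3 and Cdh9; the causes of lost calls were not tested.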
